A study of Mus musculus with 4 samples.

Results

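The cytosolic ribosomal proteins are the protein components of the ribosomes that translate nuclear mRNAs. They were taken as every probe set, the group of short probes that measures 1 transcript, whose single gene symbol in the platform annotation begins Rpl or Rps followed by a digit, or is Rpsa, Rplp0, Rplp1 or Rplp2. Symbols beginning Rps6k, which encode kinases, and symbols ending in -ps or -rs, which mark pseudogenes and related sequences, were left out. This gave 49 probe sets of 35 genes, out of 8251 singly named genes and 12422 probe sets without the array's controls. By symbol alone, 22 of the 49 were counted with the large (60S) subunit (Rpl) and 27 with the small (40S) subunit (Rps).

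RNA came from testes of hypogonadal (hpg) mice, in which the pituitary is not driven by gonadotropin-releasing hormone and the testis makes little androgen. All animals had received testosterone propionate (spelled proprionate in the labels), an injectable testosterone ester, which was then withdrawn. The titles name 2 groups: T+T with 3 arrays and T+O with 1 array. The description of T+T replicate 1 adds a renewed testosterone propionate treatment of 4 hours and gives no length for the first one. The descriptions of T+T replicates 2 and 3 and of T+O replicate 1 give 2 weeks of first treatment and then the withdrawal, so the arm of T+T replicates 2 and 3 rests on their titles. Strain, age and the length of the withdrawal are not stated in the labels used here, nor whether an array stands for 1 animal or a pool, so p-values measure only the spread between these samples, which may be technical.

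Each ribosome joins a small subunit, which reads the mRNA, to a large subunit, which forms the peptide bond. Their proteins are made in near equal amounts, and their mRNAs are among the most abundant in growing cells. In mammals these mRNAs begin with a pyrimidine-rich stretch, the 5′ terminal oligopyrimidine (TOP) tract, through which mTOR signalling controls their translation. In the testis, late germ cells use some paralogs that are rare elsewhere, of which Rpl39l is a known case.

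The start sites of several members are printed because a sequence feature near the start was shared by many of them and was not used to choose them. RefSeq start regions of build GRCm38.p6, 250 bases before to 50 after the annotated start, matched 28 of the 35 genes with 37 start regions. Rpl32, Rpl7, Rpl8, Rps14, Rps20, Rps29 and Rps4l had no entry. Each line below holds 40 bases before and 25 bases from the annotated start, 5′ to 3′ on the gene's strand. Capitals mark a run of at least 7 pyrimidines that begins with C, searched from 20 bases before to 50 after the start, and the letters CCGGAAG or their reverse complement CTTCCGG. A run that passes the end of a line is cut there. The lines are Rps18 at chr17:33955641-33955705 on the minus strand, Rps27 at chr3:90213624-90213688 on the minus strand, Rps10 at chr17:27635220-27635284 on the minus strand, Rpl7a at chr2:26910767-26910831 on the plus strand, Rpl39l at chr16:10170188-10170252 on the plus strand, and Rplp0 at chr5:115559427-115559491 on the plus strand, which has no such run.
Rps18: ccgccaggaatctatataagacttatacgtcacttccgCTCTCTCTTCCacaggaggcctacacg
Rps27: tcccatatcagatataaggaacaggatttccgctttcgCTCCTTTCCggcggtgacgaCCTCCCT
Rps10: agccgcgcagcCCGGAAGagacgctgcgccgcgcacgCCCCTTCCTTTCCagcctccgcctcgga
Rpl7a: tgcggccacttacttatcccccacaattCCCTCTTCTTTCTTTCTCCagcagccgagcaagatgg
Rpl39l: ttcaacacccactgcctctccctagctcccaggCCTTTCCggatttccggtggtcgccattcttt
Rplp0: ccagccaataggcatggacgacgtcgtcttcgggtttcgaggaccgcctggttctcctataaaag

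The pyrimidine run lay on the sense strand in 22 of the 37 ribosomal protein start regions (59.5%), against 29.5% of all 32851 start regions. On the opposite strand of the same windows it lay in 18.9% of the ribosomal protein regions, against 34% of all regions. The letters CCGGAAG on either strand, the core bound by ETS-family factors such as GABP, stood in 32.4% of the 37 regions, against 8.86% of all regions. The letters ATGGCGG on either strand, the core of YY1 sites, stood in 21.6%, against 4.05%. Start regions of the mitochondrial ribosomal proteins that passed the signal filter given below differed in the first feature: 30.4% of 56 held the sense-strand run. Of the same 56, 33.9% held CCGGAAG and 14.3% held ATGGCGG. The cytosolic genes were not filtered by signal for this comparison. These are matches of letters and not measured binding sites, several genes contribute more than 1 start region, and the annotated start need not be the one used in testis.

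Signals were scaled to 1 trimmed mean per array, leaving aside the top 2% and bottom 2% of probe sets. Differences are T+T minus T+O on the log2(signal + 10) scale, which understates the change of dim probe sets. A probe set was tested if its mean scaled signal over the 4 arrays lay above 22.7, the 40th percentile of all probe sets. This left 7453 probe sets in all and 35 of the 49 ribosomal protein probe sets, 15 of the large and 20 of the small subunit. The remaining 14 reached at most 24.2 on any array. Signals of different probe sets also depend on their probes, so no level is compared between genes here.

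Across the 7453 probe sets the arrays correlated with Pearson's r between 0.943 and 0.968. The tissue carried the labelled testis markers: spermatid genes such as Tnp2, at 10600, 10737 and 8456 in T+T, against 7942 in T+O, and the Sertoli cell gene Clu, at 1566, 1874 and 1737, against 1589. Sycp3, Amh, Hsd3b6, Cdh5, Tek, Cd3e, Ptprc, Adam7 and Lcn5 were measured only under the filter, and the sums below include them. Earlier germ cell genes lay the other way in part: Sycp1, of the meiotic chromosome axis, had 13.5, 38.5 and 36.2 in T+T, against 390 in T+O (limma, adjusted p = 0.11), and 3 of 5 spermatogonial genes lay below T+O on all T+T arrays. The other 2 spermatogonial genes lay above T+O on all T+T arrays. So did 3 of 6 spermatocyte genes, of which only Sycp1 lay below on all. Summed marker signals in T+T were 7499 to 9199 for spermatocytes, 784 to 1130 for spermatogonia, 2535 to 3063 for Sertoli cells and 303 to 393 for Leydig cells, against 7831, 1201, 2593 and 349 in T+O. They were 520 to 536 for peritubular cells, 225 to 290 for endothelium, 250 to 311 for immune cells, 563 to 620 for red blood cells and 43.2 to 77.6 for epididymis, against 431, 210, 206, 544 and 68.9 in T+O. A sign of RNA integrity, the 3′ signal over the 5′ signal of a control gene, also moved with the groups: for Gapdh it was 0.844 ± 0.039 (SD, n = 3) in T+T and 1.20 in T+O, and for Pcx 1.90 ± 0.12 (SD, n = 3) in T+T and 3.76 in T+O, while Actb overlapped. Its part in the member differences was not tested.

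None of the 35 tested ribosomal protein probe sets was called higher or lower in T+T than in T+O after adjustment (limma with Benjamini-Hochberg adjustment over all 7453). Over all probe sets, 0.0268% were called higher and 0% lower, which are 2 calls in all. The calls over all probe sets became 63 when T+T replicate 1 was left out, 12 when it was replicate 2 and 1 when it was replicate 3. None of these calls was a member, and probe sets with several symbols were not checked here. At an unadjusted p under 0.05, 4 members lay higher (11.4% of those tested, against 3.57% of all) and 0 lower (against 4.23% of all). These 4 were Rps4x on 1 of its probe sets, Rps19, Rpl37a and Rps27. The Rps4x probe set was tested only because its T+T signals are high: on the T+O array it was dimmer than the filter allows, which held for 3 tested members in all, so the share of 11.4% includes a member whose higher T+T signal let it in.

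Although no single member passed, the members lay mostly on 1 side of the T+O array. Of the 49 probe sets, 38 had a mean difference above 0 and 11 below (77.6% above, against 54.7% of all 12422 probe sets). The median difference was 0.19, against 0.03 over all 12422 probe sets, and the members’ quartiles were 0.07 and 0.32. On all 3 T+T arrays at once, 23 of the 49 lay above T+O (46.9%, against 29.7% of all probe sets) and 4 lay below (8.16%, against 23.2% of all). Of these, 6 of the 23 and 3 of the 4 lay under the filter, near the background level. The differences of the 3 T+T arrays share the single T+O array, so a shift of that array alone moves them together. In RNA of a mixed tissue such as testis, fewer cells of a type and less RNA per cell cannot be told apart.

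**Figure D1:**
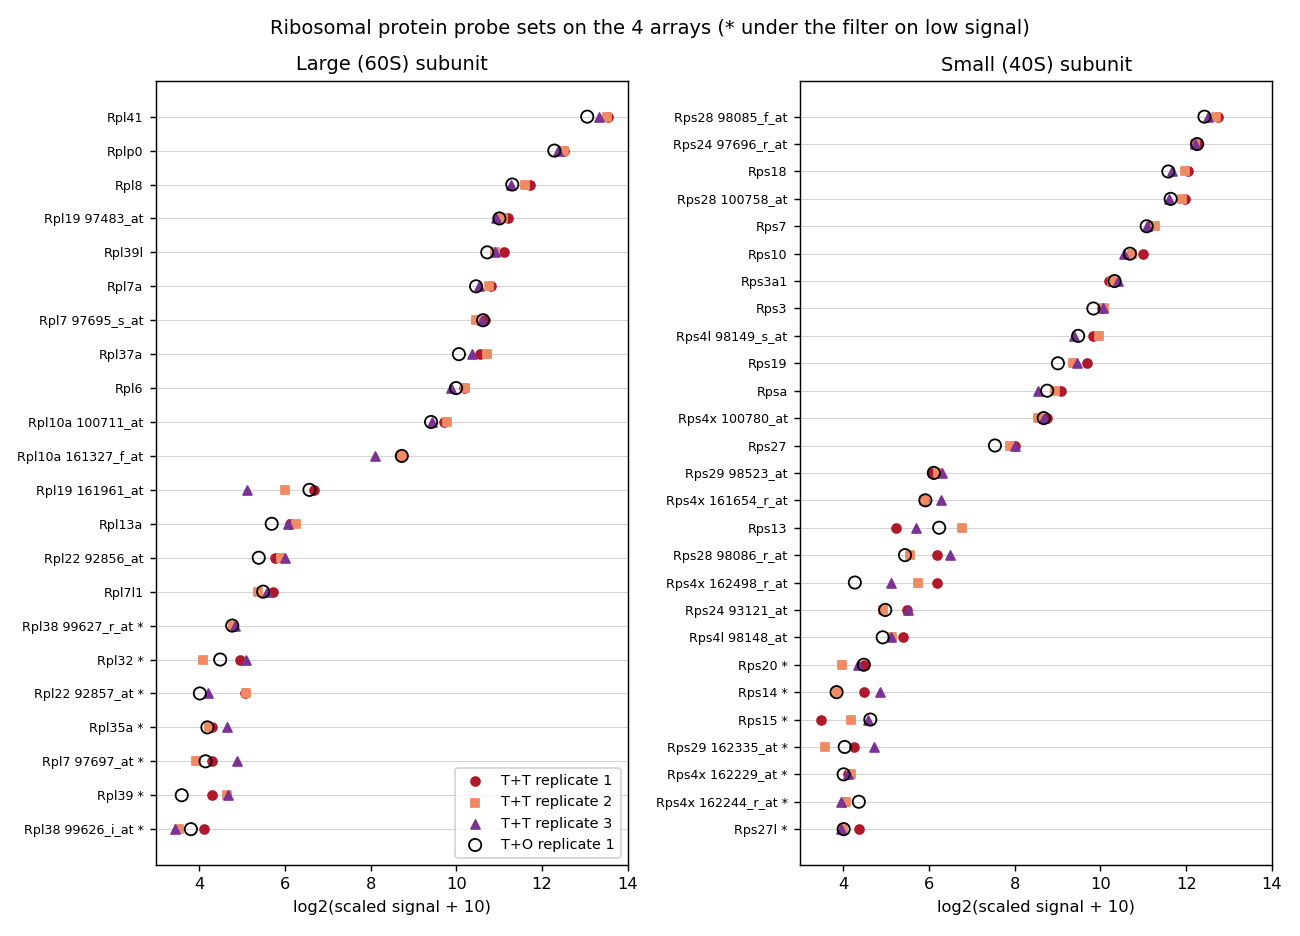
Signals of all 49 ribosomal protein probe sets as log2(scaled signal + 10), with 1 row per probe set, filled symbols for T+T replicates 1, 2 and 3 and an open circle for the T+O array. For 23 of the rows all 3 filled symbols lie right of the circle, and in most rows the 4 arrays lie close together.

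The large subunit proteins build the peptidyl transferase centre's surroundings, the exit tunnel and the stalk. Their 22 probe sets had a median difference of 0.22, with 12 above T+O on all T+T arrays (54.5%, against 29.7% of all probe sets) and 0 below (against 23.2% of all). Rpl41, one of the smallest known ribosomal proteins, had signals of 11837, 11638 and 10315 on T+T replicates 1, 2 and 3, against 8482 on T+O. Every T+T array lay above T+O, by 0.41 ± 0.18 (SE; limma, adjusted p = 0.67). The name of this probe set ends in _f_at, which marks probes shared within a gene family.

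Rpl37a, a zinc-binding protein of the large subunit, had 1484, 1677 and 1311 on the T+T arrays, against 1057 on T+O. The groups did not overlap, and the difference was 0.48 ± 0.19 (SE; limma, adjusted p = 0.60). Rplp0, which anchors the stalk that recruits translation factors, had 5784, 5809 and 5326 in T+T, against 4980 in T+O. All T+T arrays lay above T+O, with a difference of 0.18 ± 0.17 (SE; limma, adjusted p = 0.87).

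Rpl13a, which in human cells also takes part in a complex that silences inflammatory mRNAs, had 59.9, 67.1 and 57.6 in T+T, against 41.8 in T+O (difference 0.46 ± 0.25 SE; limma, adjusted p = 0.73). Rpl7a had 1772, 1714 and 1461 in T+T, against 1399 in T+O. Rpl8 had 3342, 3080 and 2466 in T+T, against 2518 in T+O. In Rpl8 and Rpl6 T+T replicate 3 lay under the T+O array while the other T+T arrays lay above it: Rpl6 had 1147, 1173 and 934 in T+T, against 1009 in T+O. Rpl35a, Rpl38 and Rpl32 were measured only by probe sets under the filter, with signals between 0.935 and 24.2.

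The small subunit proteins line the mRNA channel and the decoding site. Their 27 probe sets had a median difference of 0.13, with 11 above T+O on all T+T arrays (40.7%, against 29.7% of all probe sets) and 4 below (14.8%, against 23.2% of all). Rps19, which is needed to mature the small subunit and is mutated in human Diamond-Blackfan anaemia, had 813, 647 and 691 in T+T, against 504 in T+O. All T+T arrays lay above T+O, by 0.49 ± 0.19 (SE; limma, adjusted p = 0.59). Rps27, a zinc finger protein of the small subunit, had 247, 228 and 249 in T+T, against 176 in T+O. Its T+T arrays lay close together and apart from T+O, with a difference of 0.43 ± 0.19 (SE; limma, adjusted p = 0.64).

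Rps18, a protein of the small subunit head, had 4236, 4010 and 3258 in T+T, against 3055 in T+O (difference 0.32 ± 0.20 SE; limma, adjusted p = 0.77). Rps3, which sits at the mRNA entry and also has a role in DNA repair, had 1034, 1069 and 1061 in T+T, against 903 in T+O. Rps7 had 2277, 2461 and 2170 in T+T, against 2150 in T+O, so that T+T replicate 3 was barely apart. Rps10 and Rpsa overlapped between the groups. Rps10 had 2009, 1694 and 1479 in T+T, against 1637 in T+O, and Rpsa, also known as a laminin receptor, had 530, 479 and 363 in T+T, against 422 in T+O. Rps3a1 had 1170, 1214 and 1353 in T+T, against 1275 in T+O.

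At the lower end, Rps13 had 27.6, 98.7 and 42.0 in T+T, against 65.5 in T+O, a difference of -0.34 ± 0.52 (SE; limma, adjusted p = 0.94). The T+T arrays lay on both sides of T+O, and the SE was larger than the difference. Its difference ran between -0.77 without T+T replicate 2 and -0.0058 without replicate 1. The name of its only probe set ends in _r_at, which marks a break of the maker's usual probe selection rules. Rps14, Rps15, Rps20 and Rps27l had only probe sets under the filter, with signals up to 19.2. Rps15 and Rps20 lay below T+O on all T+T arrays: Rps15 had 1.15, 8.09 and 13.9 in T+T, against 14.8 in T+O, and Rps20 had 12.31, 5.71 and 10.3 in T+T, against 12.35 in T+O, where T+T replicate 1 was all but level with T+O.

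**Figure D2:**
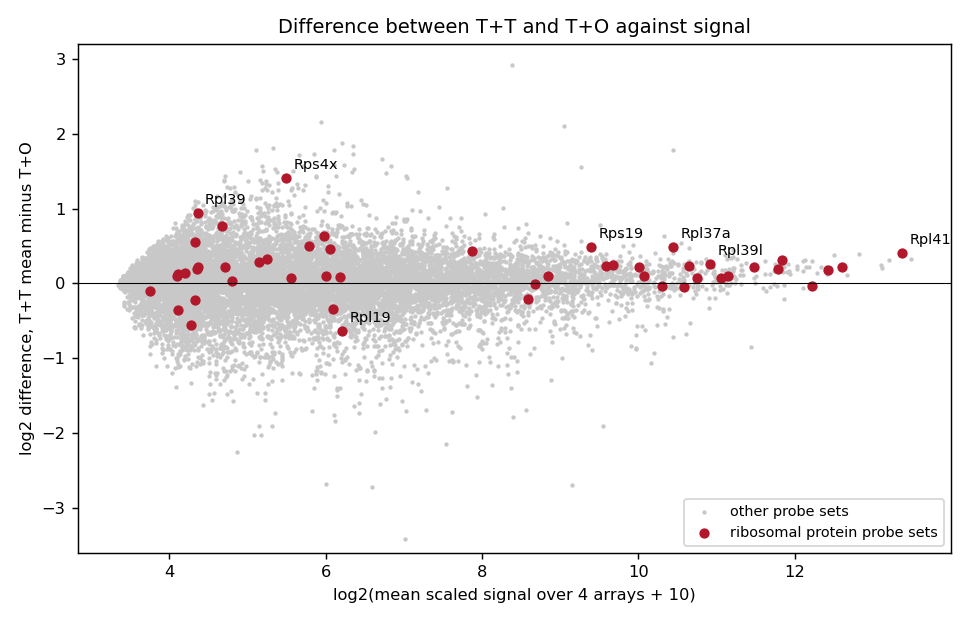
Mean log2 difference, T+T minus T+O, against log2(mean scaled signal + 10) for 49 ribosomal protein probe sets (red) and all other probe sets (grey), with 7 members named. Bright members lie in a narrow band mostly above 0 and none exceeds 0.50, while dim members scatter to both sides, as dim probe sets do in general.

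Paralogs and family members were described apart, since their probes can pick up each other's transcripts. Rpl39l, the paralog of Rpl39 that is enriched in the testis, had 2204, 1903 and 1913 in T+T, against 1677 in T+O. All T+T arrays lay above T+O, with a difference of 0.25 ± 0.18 (SE; limma, adjusted p = 0.80). Rpl39 itself, on the X chromosome, was listed at 9.66, 15.3 and 15.5 in T+T and 2.10 in T+O, all under the filter level, so its difference of 0.95 was not tested.

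Rpl22, an RNA-binding protein of the large subunit with a role in lymphocyte development, had 2 probe sets that ran the same way. The brighter had 44.7, 50.3 and 54.3 in T+T, against 32.0 in T+O, a difference of 0.51 ± 0.28 (SE; limma, adjusted p = 0.73). The dimmer one, under the filter, had 23.6, 24.1 and 8.41 in T+T, against 6.22 in T+O. Rpl7l1, a relative of Rpl7, had 42.9, 31.8 and 38.3 in T+T, against 35.1 in T+O, and its groups overlapped. Rps27l, a relative of Rps27 that p53 induces, had at most 10.7 on any array.

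Rps4l is annotated in RefSeq as a transcribed pseudogene, yet its symbol falls under the rule. Its brighter probe set, whose _s_at ending marks probes shared by several transcripts, had 894, 991 and 654 in T+T, against 704 in T+O. T+T replicates 1 and 2 were above and replicate 3 below the T+O array. The dimmer probe set had 32.0, 25.2 and 24.5 in T+T, against 20.3 in T+O.

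For 10 of the 35 genes more than 1 probe set was present, and these did not always move together. Rps4x, the X-linked gene for a small subunit protein, had 5 probe sets with differences between -0.35 and 1.41. Its brightest probe set had 424, 365 and 403 in T+T, against 399 in T+O, a difference of -0.01 ± 0.18 (SE; limma, adjusted p = 1.00). A dim one, whose name ends in _r_at, had 62.9, 43.7 and 24.8 in T+T, against 9.33 in T+O, with a difference of 1.41 ± 0.45 (SE; limma, adjusted p = 0.46). The ending _r_at marks a probe set that had to break the maker's usual probe selection rules. Another, whose name also ends in _r_at, had 49.5, 49.2 and 67.5 in T+T, against 50.4 in T+O, and the remaining 2, under the filter, lay at 0.13 and -0.35. The first 2 probe sets gave different readings of 1 gene, so no direction is given for Rps4x.

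That dim Rps4x probe set was the only 1 of the 35 tested members at least 1.5-fold above T+O on all 3 T+T arrays (2.86%, against 1.82% of all tested probe sets). None of the 35 was at least 1.5-fold below T+O on all 3 (against 2.21% of all). The Rps4x probe set lay under the filter level on T+O and passed through its T+T arrays alone, so nothing is read from the first share.

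Other genes with several probe sets differed less. Rps28, a small subunit protein, had 3 probe sets with differences of 0.22, 0.19 and 0.63. The brightest had 6782, 6631 and 5847 in T+T, against 5485 in T+O. The dimmest, with the ending _r_at, had 63.0, 36.8 and 79.4 in T+T, against 33.5 in T+O, a difference of 0.63 ± 0.38 (SE; limma, adjusted p = 0.75). Rpl19 had 2353, 2180 and 1930 in T+T, against 2044 in T+O, on its brighter probe set, and 92.2, 54.4 and 25.01 in T+T, against 85.3 in T+O, on the dimmer. The dimmer one differed by -0.64 ± 0.52 (SE; limma, adjusted p = 0.84), and its T+T arrays lay on both sides of T+O. Leaving out T+T replicate 1 gave -1.01, leaving out replicate 2 gave -0.67 and leaving out replicate 3 gave -0.23.

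Rpl10a had 829, 864 and 680 in T+T, against 670 in T+O, on one probe set, and 412, 414 and 264, against 414, on a second whose ending is _f_at. The differences were 0.23 ± 0.19 and -0.21 ± 0.27 (SE; limma, no adjusted call). The brighter Rpl7 probe set had 1608, 1387 and 1543 in T+T, against 1567 in T+O. The brighter Rps24 probe set, whose name ends in _r_at, had 4853, 4670 and 4699 in T+T, against 4873 in T+O, and none lay above T+O. Their dimmer probe sets lay at 0.22 for Rpl7, under the filter, and at 0.33 for Rps24, which had 35.1, 20.4 and 35.6 in T+T, against 21.6 in T+O. The annotation pairs the brighter 2 with the same source sequence although it names different genes, so the gene behind each is uncertain. Rps29, a zinc-binding small subunit protein, had 57.2, 64.5 and 69.3 in T+T, against 59.3 in T+O, on its brighter probe set, with T+T replicate 1 below T+O.

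**Figure D3:**
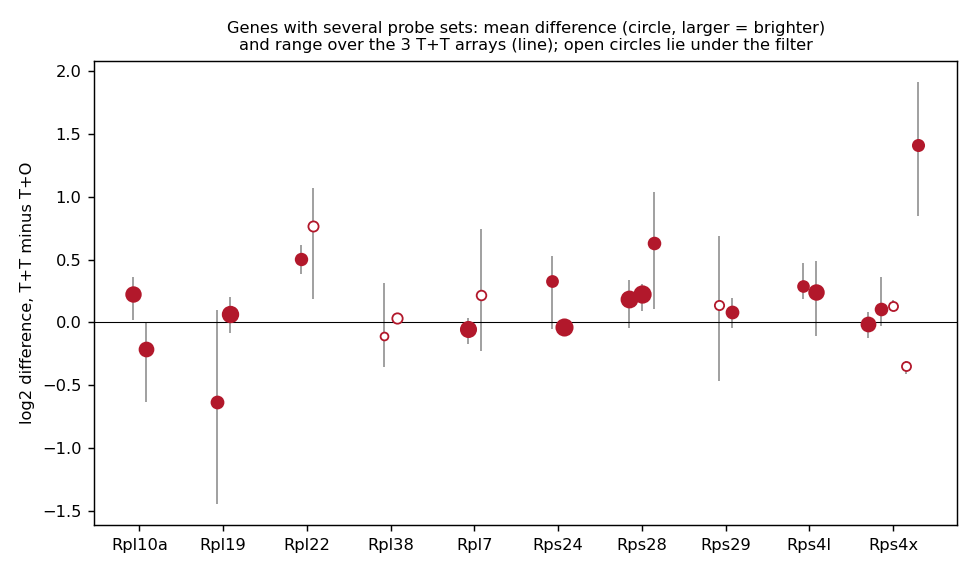
Log2 differences, T+T minus T+O, for the 10 genes with more than 1 probe set. Circles give the mean, with larger circles for brighter probe sets and open ones under the filter, and lines span the 3 T+T arrays; the Rps4x probe sets run between -0.35 and 1.41, and Rpl10a lies at 0.23 and -0.21.

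The T+T arrays did not lie equally far from T+O. The median member difference was 0.30 for T+T replicate 1, 0.18 for replicate 2 and 0.09 for replicate 3, against 0.03, 0.01 and 0.05 over all probe sets. T+T replicate 1 lay above T+O for 40 of the 49, replicate 2 for 33 and replicate 3 for 32. These are 81.6%, 67.3% and 65.3% of the members, against 53.7%, 51.2% and 56.2% of all probe sets. The 49 probe sets held 3.53%, 3.43% and 3.19% of all signal on T+T replicates 1, 2 and 3, against 2.99% on T+O. Such a share is weighted to the brightest members. Rpl41 alone had 11837, 11638 and 10315 of summed member signals of 62775, 60797 and 54140, against 8482 of 51149 on T+O.

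The arrays also differed in their general level as deposited. Before scaling, the trimmed means were 84.1, 72.9 and 124 on T+T replicates 1, 2 and 3, against 106 on T+O, so T+T replicate 3, nearest T+O in the members, was also the T+T array brighter than T+O. Bright probe sets in general also lay apart from T+O. Among the 694 other probe sets with a mean signal of at least 500, the medians were 0.13, 0.11 and -0.05 for T+T replicates 1, 2 and 3. The 20 members in that range had 0.30, 0.26 and 0.04, so on T+T replicate 3 the members and the other bright probe sets lay on opposite sides of T+O, both close to it. Spermatid markers, also bright apart from Prm2, had a summed signal between 23438 and 30012 on the T+T arrays, against 22848 on T+O. On all T+T arrays 4 of 6 lay above T+O, against 29.7% of all probe sets. These were Tnp1, Tnp2, Prm1 and the dim Prm2, at 35.4, 29.3 and 58.1 in T+T, against 25.5 in T+O. Odf1 and Akap4 overlapped between the groups. The part of the array level and of germ cell content in the member shift was not tested.

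**Figure D4:**
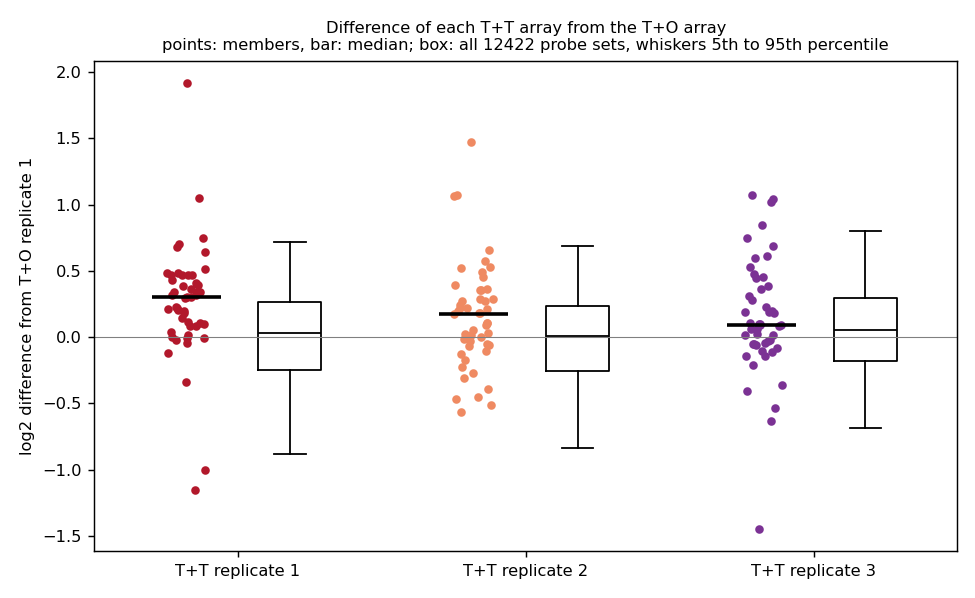
Log2 difference of each T+T array from the T+O array for the 49 ribosomal protein probe sets (points, bar at their median) and for all 12422 probe sets (box from the 25th to the 75th percentile, whiskers at the 5th and 95th). The member medians are 0.30, 0.18 and 0.09 for T+T replicates 1, 2 and 3, and lie above the median of all probe sets on each.

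The choice of scaling moved the members. With quantile normalization, which forces the arrays to 1 distribution, the member medians were 0.19, 0.06 and 0.07 for T+T replicates 1, 2 and 3, against 0.04, 0.02 and 0.01 over all probe sets. With median scaling T+T replicate 3 was at -0.04, the same as all probe sets on that array. In the values as deposited, the members stood at -0.0078, -0.31 and 0.31, against -0.19, -0.36 and 0.22 over all probe sets. The median of all probe sets shifted to -0.11 there, and the members' median of 0.013 lay above it. After quantile normalization the median over the T+T mean was 0.09. Rpl41 differed by 0.41 after the trimmed-mean scaling and by 0 after quantile normalization, where it took the same rank on every array. Leaving the members out of the trimmed mean changed no member median by more than 0.01.

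**Figure D5:**
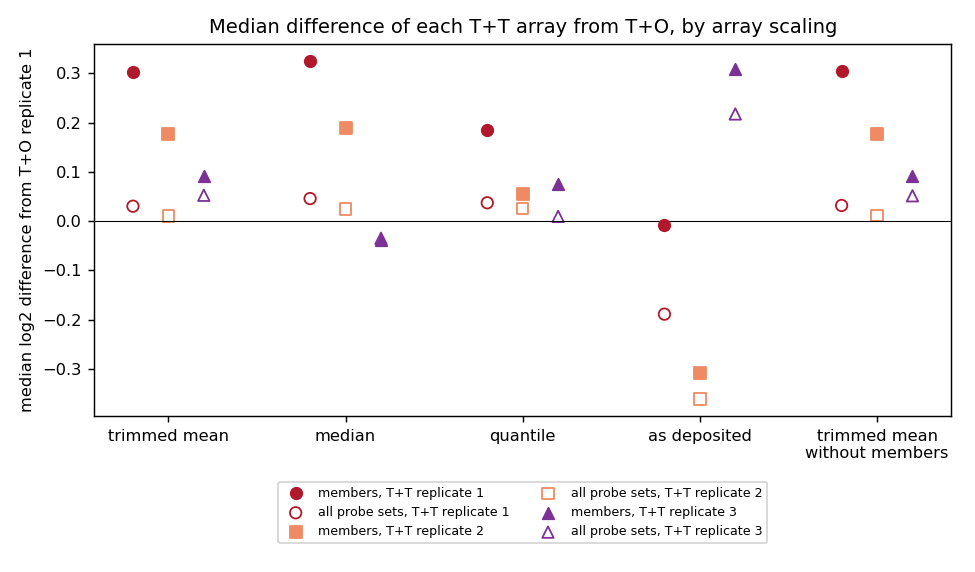
Median log2 difference from the T+O array for the ribosomal protein probe sets (filled) and for all probe sets (open), for each T+T array under 5 ways of scaling. Members lie above all probe sets in every pair but that of T+T replicate 3 under median scaling, where both lie near -0.04.

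Only T+T replicate 1 and T+O replicate 1 have titles and descriptions that match. Between these 2 arrays, without any replicate check, 40 members lay above and 9 below T+O (81.6% above, against 53.7% of all probe sets), with a median of 0.30, against 0.03 over all probe sets. At least 1.5-fold above T+O were 3 of the 35 tested members (8.57%, against 6.83% of all): the same dim Rps4x probe set at 1.92, Rps28 on its dimmest probe set at 0.75 and Rps19 at 0.68. That Rps4x probe set lay under the filter level on T+O and was tested only through its T+T signals. Nothing is therefore read from the share of 8.57%. At least 1.5-fold below was 1 member, Rps13 at -1.01 (2.86%, against 11% of all). When T+T replicates 2 and 3 are instead read as withdrawn, the median member difference of T+T replicate 1 from the other 3 arrays was 0.19, against -0.0037 over all probe sets, and again 0 members passed in limma.

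A further 39 probe sets carry several symbols, at least 1 of them a ribosomal protein. They stand outside the rule and none is named. Their median difference was 0.11, and per array it was 0.19, 0.14 and 0.01 for T+T replicates 1, 2 and 3. They ran between -0.51 and 1.22. On all T+T arrays 15 lay above T+O (38.5%, against 29.7% of all probe sets) and 4 below (10.3%, against 23.2% of all).

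Other genes of the ribosome's supply line did not pass either. Of the mitochondrial ribosomal proteins, which build the separate ribosome of that organelle, 61 genes were measured and 57 tested, and 0 passed in either direction. On all T+T arrays 26 of the 57 lay above T+O and 8 below. Over all 76 of their probe sets 46.1% lay above, close to the 46.9% of the cytosolic members, against 29.7% of all probe sets. Below lay 13.2% of the 76, against 23.2% of all probe sets. Over the 57 tested genes, taken with 1 probe set each, the median was 0.07, running from Mrps7 at -0.48 to Mrpl11 at 0.56. Over all 76 probe sets the median was 0.09. Mrpl11 had 175, 183 and 147 in T+T, against 110 in T+O (limma, adjusted p = 0.58). Per array the medians of the tested genes were 0.13, 0.14 and 0.08, and those of all 76 probe sets 0.10, 0.11 and 0.09. Either way the T+T arrays were closer to each other than in the cytosolic set.

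Of 39 tested genes for ribosome assembly and rRNA transcription 0 passed, with a median of -0.01, 10 above T+O on all T+T arrays and 13 below. Of all tested probe sets, 29.5% lay above T+O on all T+T arrays and 23.7% below. Ncl, the nucleolar protein nucleolin, was lowest at 154, 295 and 370 in T+T, against 537 in T+O, a difference of -1.03 ± 0.41 (SE; limma, adjusted p = 0.60). Sbds, which helps release an anti-association factor from the large subunit, was highest at 441, 512 and 534 in T+T, against 369 in T+O. Among 8 tested ribosome partners and other TOP mRNAs 0 passed, with a median of 0.01. Pabpc1, the poly(A)-binding protein, was highest at 0.24 ± 0.17 (SE), with 4048, 4333 and 4638 in T+T, against 3676 in T+O. Fau, whose product is cleaved to a small subunit protein, was lowest at -0.13 ± 0.48 (SE). Its signals were 33.5, 11.4 and 23.2 in T+T, against 24.3 in T+O, with a mean of 23.1 just over the filter. Of 9 tested regulators 0 passed, with a median of -0.10, from Mdm2 at -0.44 to Tsc2, an inhibitor of mTOR signalling, at 0.32. Whether the cytosolic members differ from these lists was not tested.

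The ribosome's RNA could be read only from 3 control probe sets for 18S rRNA. The one at the 3′ end had 88.2, 177 and 125 in T+T, against 104 in T+O, so the groups overlapped. The one at the 5′ end had 39.8, 37.8 and 41.2 in T+T, against 32.7 in T+O, and the middle one 24.5, 36.6 and 51.0 in T+T, against 18.8 in T+O. None of the 3 was part of the scaling, and they are not a measure of ribosome number.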

How the data were processed

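Total RNA of 4 testis samples was measured on one-colour Affymetrix arrays, a maker read from the probe set names. The deposited table holds signal intensities on a linear scale for 12488 probe sets; the software and normalization behind them are not given in the sources used here. Its level differed between arrays, so the 66 control probe sets were removed and each array was scaled to a common mean after trimming 2% at each end (factors 1.15, 1.33 and 0.779 for T+T replicates 1, 2 and 3, and 0.915 for T+O). An offset of 10, the rounded 25th percentile, was added before log2. Detection calls were not used here.

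Gene names came from the platform annotation, updated through RefSeq gene IDs (10817 of 10833 single-symbol probe sets matched); 396 probe sets had several symbols and 1193 none. Groups came from the titles; the number 3 of T+T was given in accession order. T+T was set against T+O on 7453 probe sets with limma 3.58.1 in R 4.3.3 (lmFit, eBayes with intensity trend, two-sided, Benjamini-Hochberg, threshold 0.05), with 2 residual and 5.74 prior degrees of freedom. With 1 T+O array, its spread was taken to equal that among T+T, and the number of arrays limits the precision. The fit was also run on simulated data. There every array was given the spread among T+T, so the run could not check that assumption.

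Named members were those past the threshold (none), the 5 highest and 5 lowest tested, the 3 brightest, a fixed set of paralogs, genes whose probe sets disagreed by 0.25 on either side of 0, members 1.5-fold apart on all T+T arrays, and the ends of each other list; further members were named after their values were seen. The members and lists were chosen with earlier results of these data known. Alternatives covered scaling, offset, filter, probe set choice, intensity trend, each T+T array left out, and the reading of T+T replicates 2 and 3 as withdrawn.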

Additional observations from a re-analysis of the deposited data

How the results depend on the processing

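The number of ribosomal protein probe sets past the adjusted threshold was 0 under every alternative run. The single probe set at least 1.5-fold from T+O on all T+T arrays became 0 under 5 alternatives: an offset at the 50th percentile, a filter at the 60th, 1 probe set per gene, only plain _at probe sets, and replicates 2 and 3 taken as withdrawn. Without a filter there were 2. Leaving out 1 T+T array gave 1 to 2, the higher count without T+T replicate 2. The median difference of 0.19 ran between 0.09 and 0.22 except in the values as deposited, where it was 0.013, and between 0.15 and 0.20 without 1 T+T array. For T+T replicate 1 against T+O replicate 1 the median of 0.30 became 0.19 after quantile normalization and -0.0078 as deposited, and the 4 members at least 1.5-fold apart became 2 as deposited, 8 with no filter (more probe sets tested), 2 with the filter at the 60th percentile, 2 with 1 probe set per gene and 1 with only plain _at probe sets. Beyond fewer or more probe sets entering, the cause was not tested.

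Over all 49 probe sets, signs turned as follows. After quantile normalization Rplp0 was at -0.0041 and Rps7 at -0.0039. As deposited, Rps7 and Rpl6 were at -0.11, the brighter Rpl19 and Rps10 at -0.14, the second brightest Rps28 at -0.024, the brighter Rps29 at -0.091, the brighter Rpl38 at -0.092, Rplp0 was at -0.034, Rpl7l1 at -0.084, the second brightest Rps4x probe set at -0.064 and Rpsa at -0.11. With 1 T+T array left out, Rpl7l1 ran between -0.0048 and 0.16, Rps27l between -0.034 and 0.17, Rps10 between -0.048 and 0.17, Rps3a1 between -0.096 and 0.0079, the dimmer Rpl38 between -0.32 and 0.021, the dimmer Rps29 between -0.13 and 0.45, Rpsa between -0.017 and 0.25, Rpl7 between -0.098 and 0.0075 on the brighter and between -0.041 and 0.45 on the dimmer probe set, and Rps4x between -0.055 and 0.049 on the brightest and between -0.025 and 0.17 on the second brightest. With replicates 2 and 3 taken as withdrawn, the dimmer Rpl19 probe set was at 0.77, the dimmer Rpl10a at 0.20, Rpl7 at 0.10 and -0.027, the brighter Rps24 at 0.032, Rpl39 at -0.012, Rpl35a at -0.051, Rps20 at 0.21, the brighter Rps29 at -0.14, Rpl38 at 0.53 on the dimmer and -0.011 on the brighter probe set, and Rps4x at 0.12 on the brightest and -0.13 on the second brightest probe set. No paired analysis was possible because T+O has 1 array. Members under the filter sit near the background level of the arrays, so their differences are the least certain.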
